A study of Mus musculus with 8 samples.

Results

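Signals of 10 genes that mark the pyramidal cells of hippocampal fields CA2 and CA3 were followed in mice lacking the chromatin protein CTCF in forebrain excitatory neurons. The 5 CA2 genes were Amigo2, Plcxd3, Rgs14, Pcp4 and Map3k15, and the 5 CA3 genes were Bok, Socs2, Coch, Iyd and Spock1. The members were every non-control probe that carried one of these names, which gave 13 probes of the 55681 on the array, 5 for CA2 and 8 for CA3. The RNA came from the hippocampus of 8 adult C57BL/6 mice at least 3 months old, naive and untreated, with 1 array per mouse. Each mouse carried Camk2a-Cre, a recombinase driven by a promoter of forebrain excitatory neurons, and Ribotag, an Rpl22 ribosomal protein allele that gains an HA tag where Cre is active. Anti-HA antibody recovered the tagged ribosomes with their RNA. The 4 control mice (WT) were labelled Ctcf wild type and the 4 knockout mice (CKO) Ctcf loxP/loxP, with 3 males and 1 female in each group. WT 3 and CKO 2 were the females. The mice are labelled as biological replicates. The design text of the series gives the controls as Ctcf loxP/loxP and names Cre only for the knockouts; the labels of the samples were followed here.

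Pyramidal cells of the hippocampus fall into fields with their own inputs and their own genes. CA3 cells receive the mossy fibres of the dentate granule cells and excite one another and CA1, while the small field CA2 between them resists common forms of synaptic potentiation and is known for its part in social memory. CTCF binds DNA and, with cohesin, anchors chromatin loops that bring promoters and distant enhancers together. The genes are not exclusive to these fields: Pcp4, for example, is also made by dentate granule cells.

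The probes are 60-base oligonucleotides, and a stretch of 30 bases is shown for those on which the results turn. The A_66_P124052 probe for Bok lies at chr1:95592276-95592335 (mm9, plus strand), and its last 30 bases hold AATAAA, a polyadenylation signal, in capitals. Of the 55681 probes, 10.1% hold these letters, and of the 13 member probes this was the 1 that did. The Spock1 probes lie at chr13:57524451-57524510 and chr13:57528002-57528062 on the minus strand, and are assigned by the files to transcripts NM_001166464 and NM_009262. The dim CA2 probes lie at chr15:97075262-97075321 (minus strand) for Amigo2 and chr15:4524801-4524860 (plus strand) for Plcxd3. The first 30 bases are given for these 4. Whether a probe lies in an exon's coding part or in a UTR was not assigned here.
Bok A_66_P124052: tataagttaaaatccAATAAAgctttacct
Spock1 A_55_P2048640: catcaatttcttctctctctgtggaggagt
Spock1 A_51_P298837: ctctaattctacaaactgttcttactaaca
Amigo2 A_51_P176972: cactattttgtcttttgagatgaaaccaaa
Plcxd3 A_52_P207132: ttgtagaacttggtgactttatcagcactg

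Signals are given as log2 of the processed signal minus the 75th percentile of the array, and a difference is CKO minus WT. Between 72.2% (CKO 3) and 81.5% (WT 1) of the probes were well above background on an array. Slide 1 held WT 1, slide 2 held WT 2, WT 3, CKO 1 and CKO 2, and slide 3 held WT 4, CKO 3 and CKO 4. The first principal component, 52.9% of the variance, placed the 3 arrays of slide 3 at 31.4 to 165.6, with CKO 3 farthest, and the other 5 at -82.8 to -14.6. The Ctcf probe (A_51_P513785) read -1.11, -1.75, -1.47 and -1.15 in WT 1 to 4 and -2.56, -2.42, -1.97 and -2.02 in CKO 1 to 4. The groups did not overlap: the CKO mean was 54.8% of the WT signal (log2 difference -0.87, exact two-sided permutation p = 0.0286, the smallest that 4 against 4 allows; limma adjusted p = 0.738). Whether this probe lies in the deleted part of the gene is not known here.

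No CA2 or CA3 gene was called different between the genotypes, and the differences went both ways within each set. Of the 13 member probes 12 passed the filter (well above background on at least 4 arrays), and these covered 9 genes; Coch did not pass. None of the 12 was called at a limma adjusted p under 0.05, where the adjusted values ran from 0.738 to 0.922, nor was any of the 44316 probes tested, a background of 0%. At an unadjusted limma p under 0.05 a Bok probe was higher in CKO, against a background of 2.12% of probes (940), and a Spock1 probe was lower, against 3.21% (1422). The Spock1 probe was also the 1 tested member whose groups did not overlap, where 1.57% of all probes lay wholly lower in CKO. That probe passed the filter through WT: it was well above background on 4 WT arrays and 1 CKO array, so both counts set a WT signal against background in most CKO arrays and are no support for a difference. Of the 12 differences 7 were negative, as were 60.6% of all differences. The median over genes was 0.062 for CA2, with 3 positive and 2 negative, and 0.0080 for CA3, with 2 positive and 2 negative, while the median of all probes was -0.096. The CA2 median is that of Pcp4, and its sign turned with quantile normalization, alone (-0.018) or after normexp background correction (-0.045), and in the authors' deposited table (-0.046). The CA3 median lies midway between Iyd (0.27), which had opposite signs on slides 2 and 3, and Socs2 (-0.25). The Socs2 value averages 3 probes, among them those of uncertain placement described below.

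**Figure D1:**
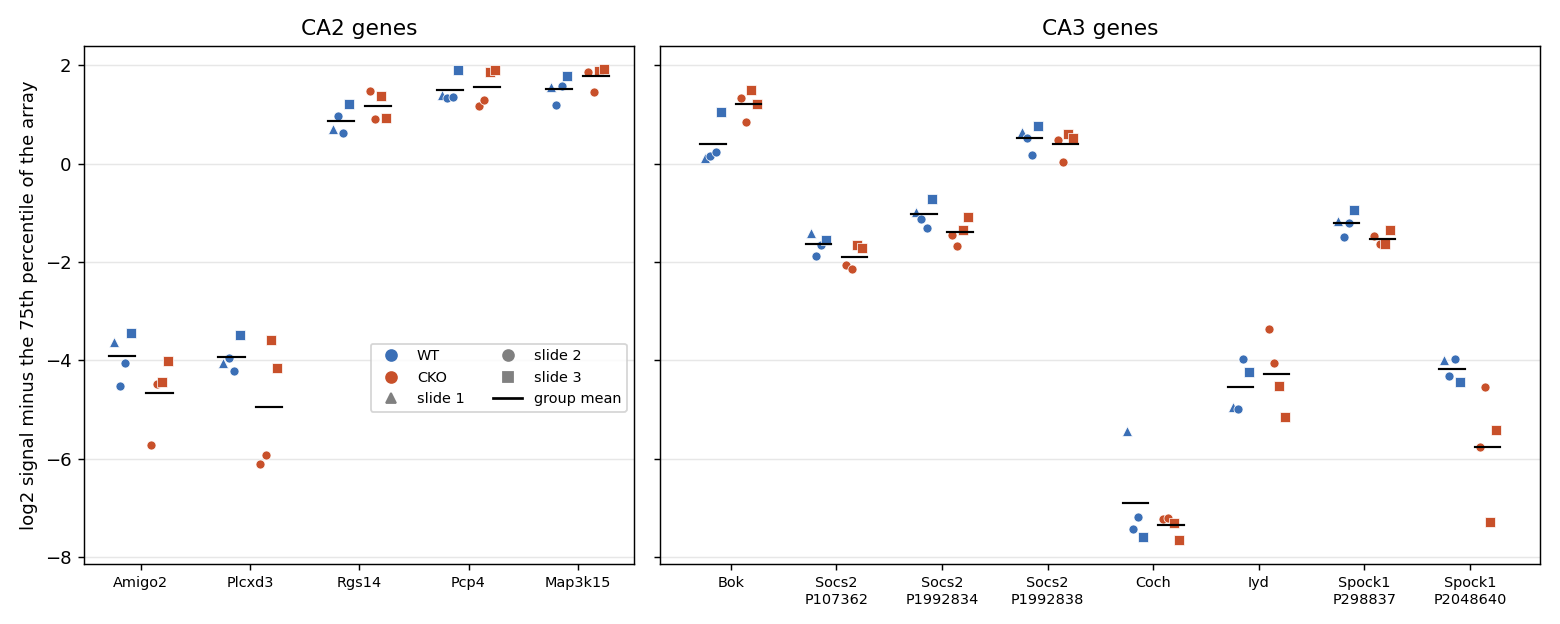
Signal of each member probe on each of the 8 arrays, as log2 minus the 75th percentile of the array (vertical axis), with CA2 genes on the left and CA3 genes on the right. Blue points are WT, orange points CKO, the marker shape gives the slide and the black lines are group means; the Spock1 probe A_55_P2048640 has groups that do not overlap but was not well above background on 3 CKO arrays, and Bok overlaps through WT 4 alone. Heights of different probes are not comparable.

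Among the CA2 genes, the bright probes had overlapping groups and differences of 0.062 to 0.30. Rgs14, a regulator of G protein signalling that restrains synaptic plasticity in CA2 cells, read 0.70, 0.97, 0.62 and 1.23 in WT 1 to 4 and 1.48, 0.91, 1.37 and 0.94 in CKO 1 to 4. The groups overlapped between 0.91 and 1.23, with CKO 1 and CKO 3 above all WT arrays. The means were 0.88 ± 0.28 and 1.18 ± 0.29 (SD, n = 4), a difference of 0.30 with SE 0.21 and a 95% interval of -0.18 to 0.78 (limma adjusted p = 0.738). Within slide 2 it was 0.40 and within slide 3 it was -0.071.

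Pcp4, a small protein that alters calcium binding by calmodulin, gave 1.40, 1.34, 1.36 and 1.90 in WT 1 to 4 and 1.18, 1.30, 1.86 and 1.91 in CKO 1 to 4. Its high arrays were the 3 of slide 3, in either genotype, with a mean of 1.89 there against 1.30 on slide 2. The genotype difference was 0.062 with SE 0.23 (limma adjusted p = 0.922). Its 95% interval, with 4 arrays a group, was -0.46 to 0.59 and takes in changes in either direction. Without CKO 3 the difference was -0.037, and without CKO 4 it was -0.054.

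Map3k15, a kinase at the top of a MAP kinase cascade, gave 1.56, 1.19, 1.58 and 1.78 in WT 1 to 4 and 1.88, 1.45, 1.90 and 1.92 in CKO 1 to 4. CKO 1, CKO 3 and CKO 4 lay above every WT array, and CKO 2, the female, lay among them. The means were 1.53 ± 0.25 and 1.79 ± 0.22 (SD, n = 4), and the difference of 0.26 with SE 0.19 had a 95% interval of -0.17 to 0.69 (limma adjusted p = 0.738). It was positive under each of 21 other settings, from 0.12 within slide 3 to 0.37. Sex or replicate number in the model, other filters and 1 probe per gene cannot change this difference. Between the sexes it was 0.39 in the 3 males per group and -0.13 between the 2 females; that contrast was not tested.

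The other CA2 genes were read near background. Amigo2, a leucine-rich repeat adhesion protein of the cell surface that outlines CA2, gave -3.63, -4.53, -4.05 and -3.45 in WT 1 to 4 and -5.72, -4.48, -4.44 and -4.01 in CKO 1 to 4. CKO 1 was low, and the other CKO arrays lay within the WT range. The CKO mean was 59.6% of WT, a difference of -0.75 with SE 0.38 and a 95% interval of -1.62 to 0.12 (limma adjusted p = 0.738). It was -0.39 without CKO 1, -0.34 after quantile normalization, -0.38 in the authors' deposited table and -0.050 with normexp background correction followed by quantile normalization.

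Plcxd3, a phospholipase C-like protein with an X domain, gave -4.05, -3.95, -4.22 and -3.49 in WT 1 to 4 and -6.11, -5.93, -3.59 and -4.15 in CKO 1 to 4. The CKO arrays split by slide: those of slide 2 were low and not well above background, and those of slide 3 lay within the WT range. The CKO mean was 49.6% of WT, a difference of -1.01 with SE 0.55 and a 95% interval of -2.26 to 0.24 (limma adjusted p = 0.738). Within slide 2 it was -1.93 and within slide 3 it was -0.38; without CKO 1 or CKO 2 it was -0.62 or -0.68. It was -0.62 after quantile normalization alone, -0.13 with normexp followed by quantile normalization and -0.86 in the authors' deposited table. The tagged RNA pools all Cre-expressing cells of the hippocampus, so fewer CA2 cells and less of these RNAs per cell cannot be told apart, here or for any gene named.

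Among the CA3 genes, Bok had the lowest unadjusted p of the members. Bok, a BCL2 family protein that promotes cell death, read 0.11, 0.16, 0.25 and 1.05 in WT 1 to 4 and 1.34, 0.84, 1.50 and 1.22 in CKO 1 to 4. All CKO arrays were above WT 1, WT 2 and WT 3, while WT 4 lay between CKO 2 and CKO 4. The means were 0.39 ± 0.44 and 1.23 ± 0.28 (SD, n = 4), so that CKO was 1.78-fold of WT, a difference of 0.83 with SE 0.25 and a 95% interval of 0.26 to 1.40 (limma adjusted p = 0.738). WT 4 shares slide 3 with CKO 3 and CKO 4. Within that slide the difference was 0.31, within slide 2 it was 0.89, and with slide as a block it was 0.66. It was 1.05 without WT 4 and 0.74 without CKO 3. The sign held under all 21 other settings, with a lowest limma adjusted p of 0.387. Some of these, namely sex or replicate number in the model, other filters and 1 probe per gene, cannot change the difference of 0.83. Other processing gave 0.80 (quantile normalization), 0.74 (normexp with quantile normalization) and 0.79 (the authors' deposited table). All probes of like brightness had a median difference of 0.046.

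Spock1, a secreted proteoglycan of the testican family, had 2 probes on different transcripts. The dimmer one, A_55_P2048640, read -4.00, -4.31, -3.98 and -4.43 in WT 1 to 4 and -5.76, -4.55, -7.29 and -5.42 in CKO 1 to 4. All 4 CKO arrays were below all WT arrays, and they spread far more widely. It was well above background on 4 WT arrays and on 1 CKO array, CKO 2. The means were -4.18 ± 0.23 and -5.76 ± 1.14 (SD, n = 4), 33.6% of WT, a difference of -1.58 with SE 0.50 and a 95% interval of -2.70 to -0.45 (limma adjusted p = 0.738). With 3 CKO arrays not well above background, the size of this difference is not measured by the array. It was -1.36 after quantile normalization alone, -0.27 with normexp followed by quantile normalization and -0.90 in the authors' deposited table. Without CKO 3 it was -1.06. Probes as dim had a median difference of -0.57.

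The brighter Spock1 probe, A_51_P298837, read -1.17, -1.49, -1.21 and -0.94 in WT 1 to 4 and -1.47, -1.63, -1.64 and -1.35 in CKO 1 to 4. WT 2 lay among the CKO arrays and the other WT arrays above them. The difference was -0.32 with SE 0.17 and a 95% interval of -0.71 to 0.068 (limma adjusted p = 0.738). It was negative under 21 other settings, of which sex, replicate number, other filters and 1 probe per gene cannot change it.

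Socs2, a suppressor of cytokine and growth hormone signalling, had 3 probes, all with negative differences and all with overlapping groups. The files place A_51_P107362 at chr10:94875066-94875125 but A_55_P1992834 at chr12:14502004-14502063 and A_55_P1992838 at chr12:14501723-14501782, although all are assigned to the same transcript. Whether the probes placed on chromosome 12 read Socs2 alone or also a near-identical copy was not tested, so their values are uncertain for this gene. A_51_P107362 is printed 10 times on each array, with an SD among its spots of 0.055 to 0.24, the widest on CKO 4. It gave -1.41, -1.87, -1.66 and -1.55 in WT 1 to 4 and -2.06, -2.15, -1.66 and -1.72 in CKO 1 to 4. CKO 1 and CKO 2, both on slide 2, were below every WT array, and CKO 3 and CKO 4 were among them. Its difference was -0.27 with SE 0.18 and a 95% interval of -0.69 to 0.14 (limma adjusted p = 0.738). A_55_P1992834 gave -0.36 with SE 0.19 and a 95% interval of -0.80 to 0.082 (limma adjusted p = 0.738), and A_55_P1992838 gave -0.12 with SE 0.20 and an interval of -0.57 to 0.33 (limma adjusted p = 0.823).

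Iyd, the enzyme that recovers iodide from iodotyrosines, read -4.95, -4.99, -3.98 and -4.24 in WT 1 to 4 and -3.37, -4.05, -4.51 and -5.16 in CKO 1 to 4. The CKO arrays spanned more than the WT range, with CKO 1 above it and CKO 4 below. The difference was 0.27 with SE 0.40 and a 95% interval of -0.63 to 1.16 (limma adjusted p = 0.807). It had opposite signs on the slides, 0.77 within slide 2 and -0.59 within slide 3, and it was -0.035 without CKO 1. Other processing gave 0.71 (quantile normalization), 0.23 (normexp with quantile normalization) and 0.80 (the authors' deposited table).

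Coch encodes cochlin, a secreted matrix protein best known from the inner ear. Its probe was not well above background on any of the 8 arrays, with values of -7.60 to -5.43 in WT and -7.66 to -7.21 in CKO, the highest being WT 1. No difference was tested, and the array gives only an upper bound for this CA3 marker in the tagged RNA of either genotype.

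The size and sign of a difference went with brightness across the whole array. With the 44316 probes divided by mean signal into 10 classes of equal size, the dimmest class had a median difference of -0.57, with 83.9% negative, and the brightest class one of 0.16, with 24.8% negative. The tested members Amigo2, Plcxd3, Iyd and Spock1 A_55_P2048640 lie in the dimmest class. Against its median, Amigo2 at -0.75 was close, Plcxd3 at -1.01 and the Spock1 probe at -1.58 lay lower, and Iyd at 0.27 lay higher. Rgs14, Pcp4 and Map3k15 lie in the next to brightest class, whose median was 0.12. The part of this trend in the member values was not tested.

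**Figure D2:**
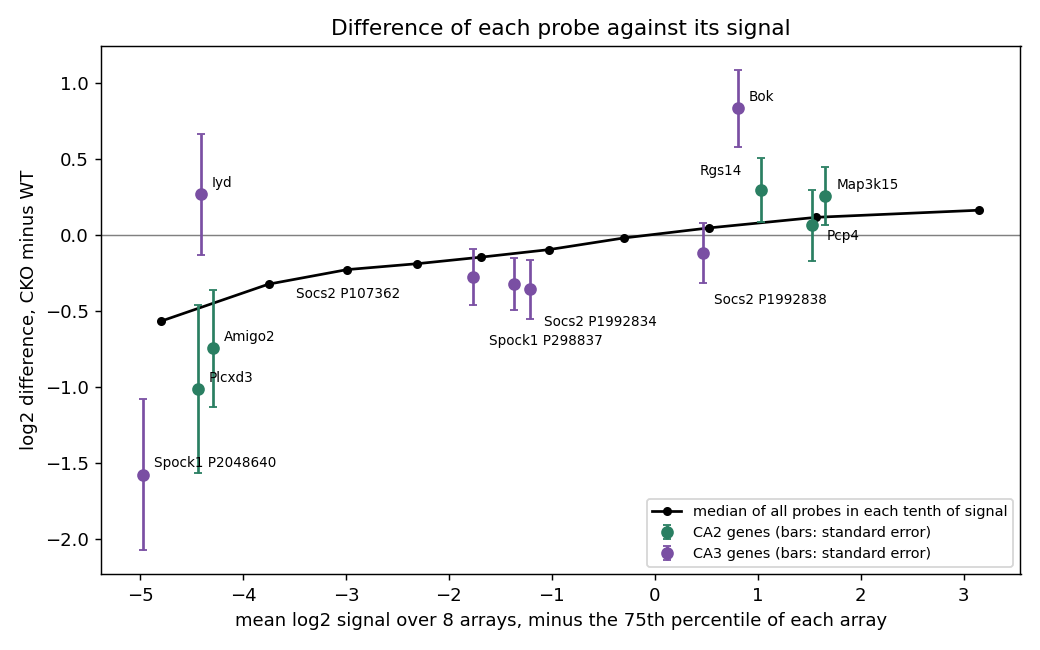
Log2 difference, CKO minus WT (vertical axis), of the 12 tested member probes against their mean signal over 8 arrays, in log2 minus the 75th percentile (horizontal axis). Green points are CA2 and purple points CA3 genes with the standard error from limma, and the black line joins the medians of all probes in each of 10 classes of signal, from -0.57 to 0.16; Bok lies above the line and the dim Spock1 probe below it.

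The slide and the scaling moved the members by different amounts. Within slide 2 (2 WT and 2 CKO arrays) and within slide 3 (1 WT and 2 CKO) the signs were the same for 10 of the 12 probes, and they were opposite for Rgs14 and Iyd. Pcp4 was negative within each slide although positive over all arrays. Under all alternatives tried, no member probe reached a limma adjusted p under 0.05; the lowest adjusted p was 0.387.

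**Figure D3:**
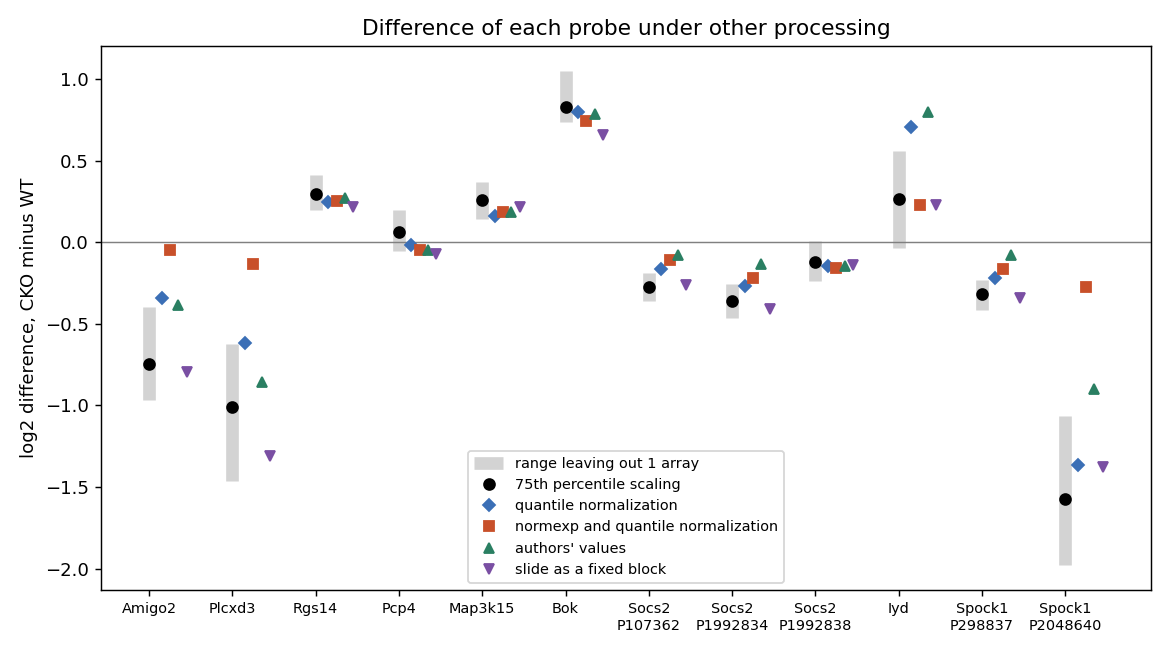
Log2 difference, CKO minus WT (vertical axis), of each of the 12 tested member probes (horizontal axis) with the main scaling (black), 4 other ways of processing (coloured) and the range when 1 array is left out (grey bars). Bok stays positive, from 0.66 with slide as a block, while the dim probes of Amigo2, Plcxd3 and Spock1 are at -0.050, -0.13 and -0.27 with normexp followed by quantile normalization.

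No other gene of the same fields was called either. Of 11 further CA2 genes, all measured, 4 had a positive and 7 a negative difference, with a median of -0.18, and 0 of their 14 tested probes were called. Chosen after their values were seen, Avpr1b, a vasopressin receptor of CA2 cells, was at -0.96 and Cacng5, an auxiliary subunit of AMPA receptors, at -0.45. The Avpr1b probe lay in the dimmest class, whose median was -0.57, and was well above background on 3 CKO arrays. Its value for CKO 3 was -7.37, while CKO 1, CKO 2 and CKO 4 (-4.89 to -4.58) lay within the WT range of -5.14 to -3.58. One probe for Sostdc1, a secreted inhibitor of BMP and Wnt signals, was 0.50 higher (limma adjusted p = 0.738), but its second probe gave -0.33. Ptpn5, a tyrosine phosphatase strongly expressed in CA2, likewise gave 0.48 and -0.24 from its 2 probes.

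Of 9 further CA3 genes 2 were positive and 7 negative, with a median of -0.18 and 0 of 17 tested probes called. Cdh24, a cadherin of cell adhesion, ran from -1.24 to -0.77 in WT and from -2.09 to -1.48 in CKO, without overlap. It was the 1 probe of these 17 whose groups did not overlap, where 1.57% of all probes lay wholly lower in CKO. The Cdh24 difference was -0.77 with SE 0.19, 58.4% of WT (limma adjusted p = 0.738). Within slide 2 it was -0.80 and within slide 3 it was -0.63. Galnt3, a glycosyltransferase that starts O-linked glycans, was at -0.68 with SE 0.25 (limma adjusted p = 0.738), with overlapping groups. Grik4, a kainate receptor subunit of mossy fibre synapses also named after its value was seen, was at 0.45 (limma adjusted p = 0.738).

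Beside these, 8 CA1 genes had a median of 0.32, with 6 positive and 2 negative, and 8 dentate genes one of -0.36, with 1 positive and 7 negative. None of the 10 CA1 and 10 dentate probes was called. The CA1 genes Fibcd1 and Mpped1 were at 0.46 and 0.31 (limma adjusted p = 0.738 for each). Tdo2, an enzyme of granule cells that breaks down tryptophan, was at -0.72 and Dsp, the desmosome protein desmoplakin, at -0.52 and -1.33 from 2 probes (limma adjusted p = 0.738 for each). These probes also differ in brightness. Fibcd1 and Mpped1 lie in classes with medians of 0.046 and 0.16, and Tdo2 in a class with -0.32. The Dsp probes at -0.52 and -1.33 lie in classes with -0.020 and -0.57. For the Dsp probe at -1.33, only 3 WT arrays and 2 CKO arrays gave a signal well above background. CKO 1 was its lowest array at -7.28, so the size of that difference is not measured by the array. The part of brightness in the CA1 and dentate medians was not tested, nor was whether these fields differ from CA2 and CA3.

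**Figure D4:**
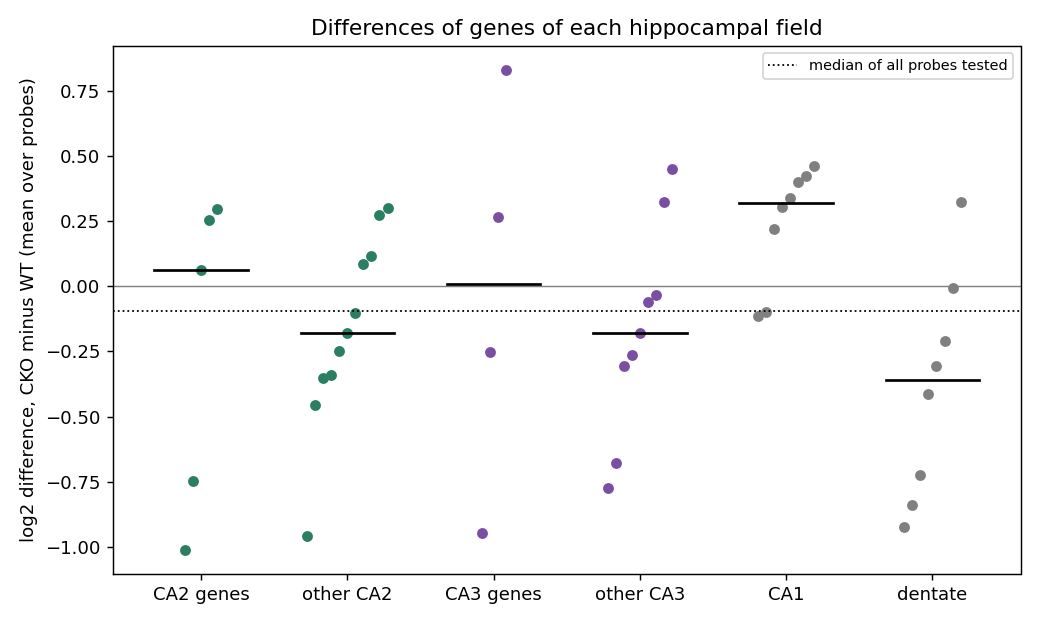
Log2 difference, CKO minus WT, of each gene of the CA2, CA3, CA1 and dentate lists, averaged over its tested probes, with 1 point per gene and a line at each median. The CA1 genes centre on 0.32, the dentate genes on -0.36, and the CA2 and CA3 members on 0.062 and 0.0080 with a wide spread. The points of Spock1 (-0.95, CA3) and Dsp (dentate) each average in a dim probe whose size of difference is not measured by the array.

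Markers of cells outside the Cre line were present in the tagged RNA. The level of a list on an array is the median over its genes of the brightest probe. For interneurons it ran from -0.65 to -0.049 in WT and from -0.35 to -0.052 in CKO, with 5 of 6 genes tested and Vip not, and 4 differences were positive and 1 negative. Oligodendrocyte markers ran from 0.93 to 1.07 in WT and from 1.14 to 1.63 in CKO, without overlap, and all 6 genes had positive differences of 0.049 to 0.54. Astrocyte markers ran from 0.010 to 0.58 in WT and from -0.23 to 0.75 in CKO, with 5 of 6 genes tested, all with positive differences, and Gja1 not well above background on any array. The 6 microglial genes ran from -1.13 to -0.62 in WT and from -1.12 to -0.38 in CKO, with 4 positive and 2 negative differences. The 4 endothelial genes ran from -2.25 to -1.59 in WT and from -2.21 to -1.39 in CKO, with 3 positive and 1 negative. Excitatory neuron markers (Camk2a, Slc17a7, Nrgn, Neurod6) ran from 3.89 to 4.47 in WT and from 4.39 to 5.02 in CKO, with 4 positive differences. None of these probes was called, and the part of these cells in the member values was not tested.

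Since CTCF binds many promoters, the windows from 250 bases before to 50 after the start of the members were read from RefSeq (GRCm38.p6), where 7 of the 10 members matched: Amigo2, Plcxd3, Pcp4, Bok, Coch, Iyd and Spock1. They were searched on both strands for AGGNGGC, the core of the CTCF motif, and for CCACNAGG, which overlaps its upstream part. AGGNGGC occurred in 4 of the 7 (Amigo2, Plcxd3, Pcp4 and Spock1), against 29.4% of 32851 such windows, and CCACNAGG in 1 (Pcp4), against 5.0%. The matches are shown with 20 bases on each side and the motif in capitals, on the strand of the gene, at chr13:57908376-57908422 (minus) for Spock1, chr15:4375394-4375440 (plus) for Plcxd3, chr15:97247390-97247436 and chr15:97247367-97247413 (both minus) for Amigo2 and chr16:96467574-96467620 (plus) for Pcp4. In Plcxd3 and the second Amigo2 match the motif is on the opposite strand.
Spock1: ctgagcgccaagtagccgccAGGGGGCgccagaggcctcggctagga
Plcxd3: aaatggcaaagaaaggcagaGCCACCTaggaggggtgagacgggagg
Amigo2 first: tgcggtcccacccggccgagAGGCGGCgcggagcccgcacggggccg
Amigo2 second: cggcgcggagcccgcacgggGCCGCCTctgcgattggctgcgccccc
Pcp4: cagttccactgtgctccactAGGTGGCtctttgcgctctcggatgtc
In Pcp4 the match of CCACNAGG overlaps that of AGGNGGC. Bok, Coch and Iyd held neither in their windows. These letters describe the windows; CTCF binding was not measured here.

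The genes whose signal across the 8 arrays was most like a member's were found by the root mean square difference of centred log2 signals. For Map3k15 they were Ube2w at 0.049, Usp33 at 0.064 and Vps4a at 0.071, where the median over all probes of 17671 genes was 0.34. For Bok they were Nufip2 at 0.11, Cd83 at 0.12 and Pdcd2l at 0.12, against a median of 0.56. Their own differences, 0.24 to 0.32 for the first set and 0.68 to 0.93 for the second, follow from that choice.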

How the data were processed

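RNA bound to tagged ribosomes from 4 WT and 4 CKO hippocampi was amplified and labelled with Cy5, per the labels' protocols. The deposited intensity of each spot is Agilent Feature Extraction's background-subtracted processed signal in the red channel, per the file headers. The submitters' processing notes name version 11.5. The authors' deposited table of values, an intensity on a linear scale whose normalization between arrays is not given in the sources used here, served as an alternative. Groups and replicate numbers came from the sample titles.

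With R 4.3.3 and limma 3.58.1, control spots and outlier flags were left out, spots of a probe were averaged as log2, and the 75th percentile of each array was subtracted. The filter kept 44316 probes, those well above background in 4 or more of 8 arrays. Each was tested by two-sided lmFit and eBayes, and p-values were adjusted over all of them (Benjamini-Hochberg, threshold 0.05). Intervals are 95% limma intervals. The number of arrays limits the precision. The fit was tested on simulated data. Every member probe is described. Other lists are given by counts and medians, and from each field list the 2 genes with the smallest unadjusted p are named, beside any said to be chosen after their values were seen. The members and lists were chosen with earlier results of these data known. Alternatives were other scalings and background corrections, slide, sex and replicate number in the model, other filters, 1 probe per gene and leaving out each array. Quantile normalization combined with the slide block was chosen after seeing the data. Probe names are those of the array files.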

Additional observations from a re-analysis of the deposited data

Results flagged for a closer look

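In groups of 4 arrays, a highest or lowest array whose gap to its neighbour took up most of the group's range was picked out by Dixon's criterion; chance picks out about 5% of groups. Of 26 groups (13 probes in each genotype) 3 were picked out, where chance would give about 1.3. For Pcp4, WT 4 read 1.90 against 1.34 to 1.40 in the other WT arrays. For Bok, WT 4 read 1.05 against 0.11 to 0.25. WT 4 is the single WT array on slide 3. For Map3k15, CKO 2 read 1.45 against 1.88 to 1.92 in the other CKO arrays, and CKO 2 is the single female of its group. The part of slide and sex in these values was not tested.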

How the results depend on the processing

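No member probe passed an adjusted p of 0.05 under any alternative. Bok, Map3k15, Amigo2, Plcxd3, both Spock1 probes and the Socs2 probes A_51_P107362 and A_55_P1992834 kept their sign under every alternative that could be fitted. Alternatives with sex or replicate number, other filters or 1 probe per gene cannot turn a sign, since they leave each difference as it is. Pcp4 turned negative with quantile normalization (-0.018), normexp followed by quantile normalization (-0.045), the authors' values (-0.046), slide as a fixed (-0.074) or random block (-0.012), within slide 2 (-0.11), within slide 3 (-0.016) and with quantile normalization and slide together (-0.12), and ran from -0.054 to 0.20 as 1 array was left out. Rgs14 (-0.071) and Iyd (-0.59) turned within slide 3. Leaving out 1 array, Iyd ran from -0.035 to 0.56 and Socs2 A_55_P1992838 from -0.23 to 0.0056. The CA3 median was 0.26 with quantile normalization, 0.33 in the authors' values, 0.26 within slide 2 and -0.44 within slide 3.

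Over all probes, called probes higher in CKO numbered 4 with normexp and quantile normalization together, 3 among probes above background on all 8 arrays and 0 to 1 as 1 array was left out (1 without WT 2). Those lower numbered 1 with that pair, 1 with slide as a random block, 3 without the filter and 1 with 1 probe per gene. At an unadjusted p under 0.05, the authors' values gave 1479 higher and 508 lower, against 940 and 1422; leaving out WT 4 gave 1896 and 3568, and leaving out CKO 3 gave 446 and 880. The median of all probes was -0.096, -0.010 with quantile normalization, -0.0048 with normexp and quantile normalization and 0.030 in the authors' values. The part of the scaling in the signs of member differences near 0 was not tested.

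The titles number the mice 1 to 4 in each group without calling them pairs. Deviations from the group mean, over all probes tested, correlated at -0.39 to 0.34 between same-numbered arrays. By this measure 0 of 4 WT arrays were closest to the CKO array of the same number. With the replicate number as a block, 0 probes were called, and 508 were higher and 1136 lower at an unadjusted p under 0.05. The cause of these changes was not tested. Amigo2, Plcxd3 and Spock1 A_55_P2048640 were not well above background on every CKO array, which limits them, and slide 3 holds 1 WT array.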
